A study of Rattus norvegicus with 48 samples.

Results

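The genes described here are those whose RNA was higher in subcutaneous adipose tissue (SAT) than in visceral adipose tissue (VAT) of male adolescent rats in every library used to choose them. Counts were scaled to a common library total (CPM) and expressed as log2(CPM + 0.5), called the log2 level below. A gene was a member where its lowest log2 level in 22 SAT libraries lay above its highest in all 24 VAT libraries and its mean log2 level was at least 1 higher in SAT. SAT late exercise replicates 4 and 6 were not used in the choice. The rule found 93 of 23481 genes (0.396%), and the same rule turned round found 20 genes higher in VAT. The members were chosen by their log2 levels in SAT and VAT, so the difference between the depots is given as a description with no test.

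Subcutaneous fat lies under the skin and visceral fat around the organs of the abdomen. The depots arise from different progenitor cells, and their cells keep depot-dependent programs of gene expression in adult animals. A piece of either depot holds adipocytes together with progenitors, fibroblasts, vessels, nerves and immune cells.

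The study asked how exercise at different hours of the active phase acts on fat. Its 4 groups of 6 rats were the late active phase exercise group (LAE), the late sedentary control group (LAC), the early active phase exercise group (EAE) and the early sedentary control group (EAC), with late meaning zeitgeber time 23 h and early zeitgeber time 13 h. Both depots were sampled at postnatal day 61, 24 h after the last exercise session, and polyA RNA was sequenced. The hour of exercise and the hour of sampling therefore cannot be told apart.

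The 48 libraries held 13163675 to 17890033 counts, with a median of 15576425, so 1 count was worth at most 0.076 CPM and a count of 0 allowed up to 0.228 CPM. Those bounds cover counting error only. Within their depots, 4 libraries were unlike the others. The median Spearman correlation of SAT late exercise replicates 4 and 6 with the other libraries of their depot was 0.832 and 0.848, against 0.957 to 0.981 for the other SAT libraries. It was 0.950 for VAT early exercise replicate 3 and 0.957 for VAT early control replicate 5, against 0.978 to 0.985 for the other VAT libraries. Counts of members called within a depot or between depots are given with and without these 4 libraries. The Ensembl gene IDs of the table could not be paired with names, so members are described by their values, 4 are followed by ID, and neither the tissue labels nor the cell types in the samples were checked against marker genes. In bulk tissue, fewer cells of a type and less RNA per cell cannot be told apart.

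Most members were well-detected genes that were present in both depots at different levels. The median member averaged 28.5 CPM over the 22 SAT libraries and the median of the VAT means was 5.67 CPM. In SAT, 13 members averaged under 5 CPM, 26 averaged 5 to 20 CPM, 38 averaged 20 to 100 CPM, 12 averaged over 100 CPM without reaching the 4 most abundant members, which averaged 1205 to 21736 CPM. Every member had counts in all 22 SAT libraries. The smallest of these SAT values, 0.118, 0.199 and 0.222 CPM in different members, were only 2, 3 and 3 counts. They lay under the 0.228 CPM that a count of 0 allows, so the separation of those members is within counting error. In VAT, 79 members had counts in all 24 libraries, 6 had 0 counts in 12 or more, and 0 members were without counts throughout. The member closest to absence from VAT had 0 counts in 21 VAT libraries, and its SAT values ran from a lowest of 0.607 through a median of 1.57 to a highest of 7.46 CPM.

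The mean log2 level was higher in SAT by 1.00 to 4.77, with a median of 1.83 over the 93 members. It was at least 2 higher for 38 members, at least 3 for 15 and at least 4 for 3. The distance between the lowest SAT library and the highest VAT library was much smaller, with a median of 0.26 and a range of 0.0034 to 2.60 on the log2 scale. It was at least 1 for 11 members and under 0.1 for 14.

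Values close to the thresholds formed a continuum on both sides. The 4 members nearest the fold minimum had mean differences of 1.00, 1.03, 1.03 and 1.06, and the nearest genes that were separated but failed the minimum had 0.99, 0.93, 0.93 and 0.89. The smallest distances between the depots among members were 0.0034, 0.0054, 0.0057 and 0.011, and the nearest genes that overlapped had -0.0048, -0.0087, -0.0099 and -0.012. In all, 587 genes had a mean difference of at least 1, of which 494 overlapped between the depots, and 26 genes were separated with a mean difference under 1.

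**Figure D1:**
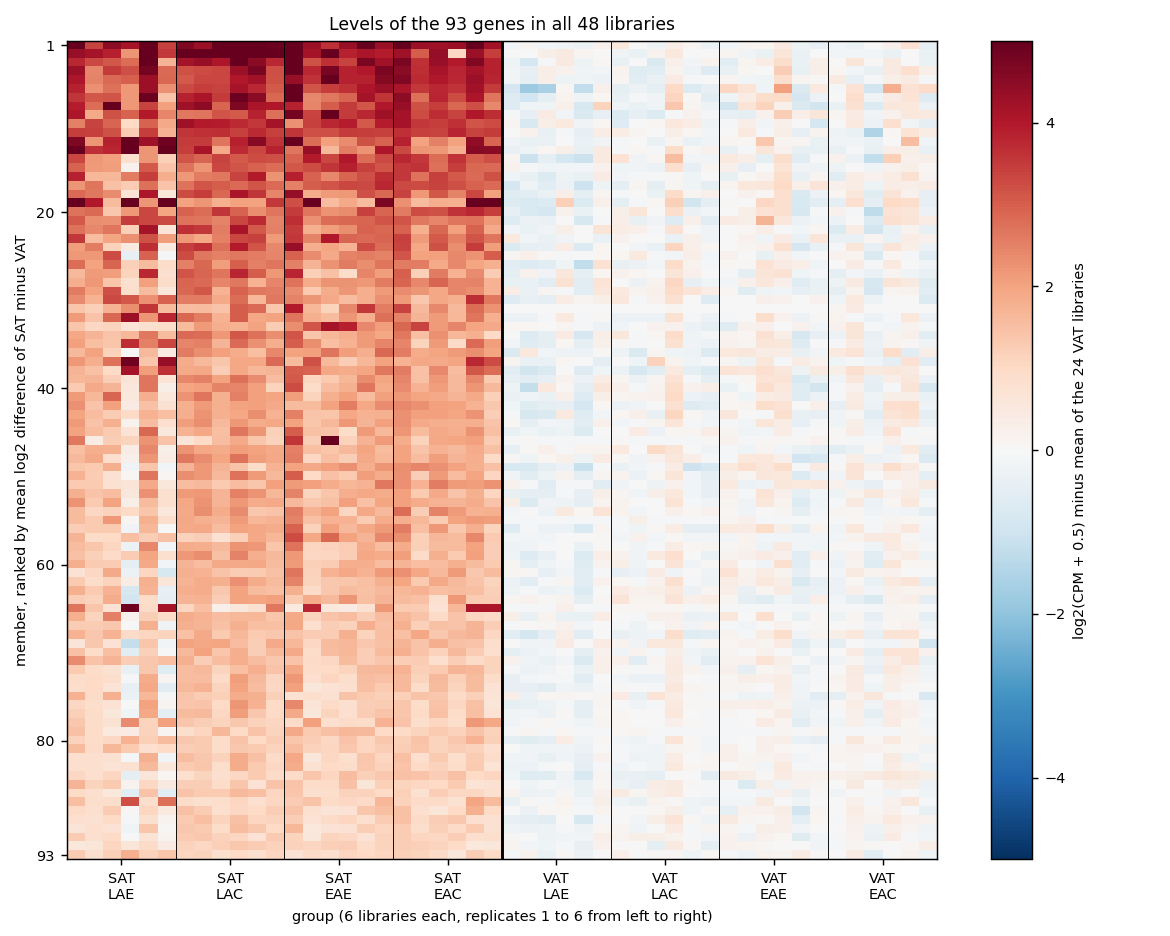
Log2 level of each of the 93 members (rows, ranked by mean difference of SAT minus VAT) in all 48 libraries (columns, 8 groups of 6), minus the member's mean over the 24 VAT libraries, as colour. The SAT columns are red throughout, except that many members are pale or blue in late exercise replicates 4 and 6, the fourth and sixth columns from the left.

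A few libraries set the edges. The lowest of the 22 SAT libraries was late exercise replicate 3 for 20 members, early exercise replicate 2 for 18, and early control replicate 6 and late exercise replicate 2 for 13 each. The highest VAT library was late control replicate 4 for 34 members, early exercise replicate 4 for 16 and early control replicate 4 for 12. The VAT libraries that stood apart were the highest for 13 members between them.

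The members together took 2.17 to 9.72% of all counts in the 22 SAT libraries, with a median of 3.82%, against 0.470 to 1.26% in VAT libraries, with a median of 0.727%. A pair of very abundant members made up 76.1% of the summed member counts in SAT and 56.2% in VAT. Without that pair the members took 0.754 to 1.52% of the counts in SAT, with a median of 1.02%, and 0.220 to 0.485% in VAT, with a median of 0.315%. The ranges of the depots did not overlap either way, as the rule itself requires for every member. Early exercise replicate 1 had the highest share in SAT, and late control replicate 4 had the highest in VAT.

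**Figure D2:**
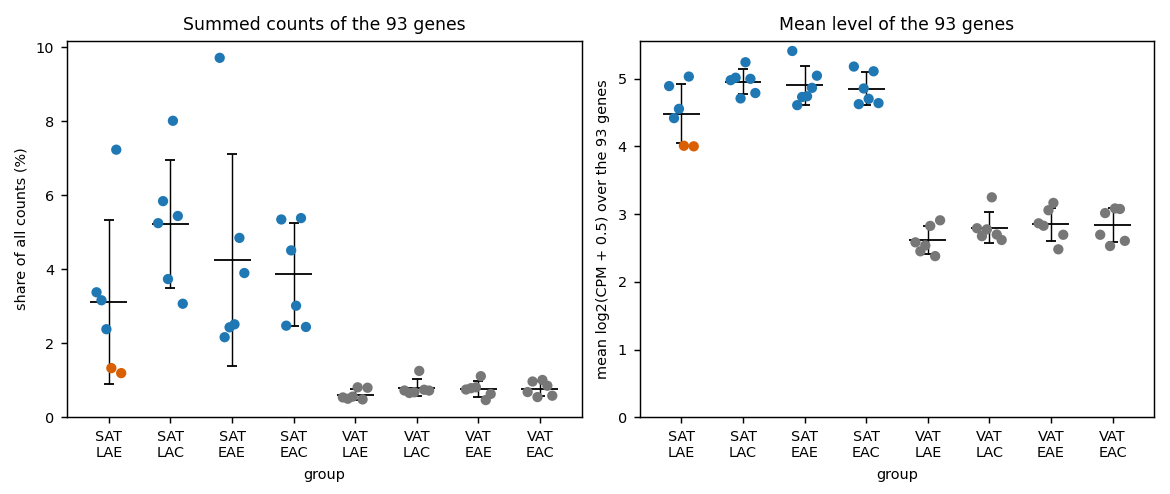
Share of all counts taken by the 93 members (left, percent) and their mean log2 level (right) in each library, by group. Points are libraries, horizontal lines are means of 6 libraries and bars are SD. Orange points are SAT late exercise replicates 4 and 6, which had shares of 1.33% and 1.20% and lay between the other SAT libraries and most VAT libraries.

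The member with the largest difference was ENSRNOG00000014378. Its CPM had a lowest, median and highest value of 7.38, 17.5 and 59.9 in the 22 SAT libraries, against 0.0559, 0.220 and 0.7998 in the 24 VAT libraries. The lowest SAT library thus stood 2.60 log2 units above the highest VAT library, the widest distance among the members. Its mean was 23.6 ± 14.8 CPM in SAT (SD, n = 22) and 0.276 ± 0.180 CPM in VAT (SD, n = 24), 85.5-fold higher in SAT. SAT late exercise replicates 4 and 6 had 12.6 and 7.60 CPM, inside the range of the other SAT libraries.

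Within SAT, ENSRNOG00000014378 averaged 24.9 ± 22.2 CPM in the late exercise group, 24.5 ± 8.38 in the late control group, 22.9 ± 18.8 in the early exercise group and 17.6 ± 5.61 in the early control group (SD, n = 6 each). Without replicates 4 and 6 the late exercise mean was 32.2 ± 24.5 CPM (SD, n = 4). These groups overlapped widely, and edgeR called no SAT contrast of this member (adjusted p of 0.74 to 1.00, log2 differences of 0.12 to 0.46). It was too low in VAT to be tested there.

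The member with the highest level was ENSRNOG00000003897. Its lowest, median and highest values were 9032, 18196 and 52388 CPM in the 22 SAT libraries, and 1505, 2563 and 4715 CPM in the 24 VAT libraries. The depots were separated by 0.94 log2 units at their nearest libraries, and the mean in SAT was 8.22-fold that in VAT. SAT late exercise replicates 4 and 6 had 4071 and 3819 CPM, which is below every other SAT library and inside the VAT range.

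The second most abundant member varied almost in parallel with it. That gene had a lowest, median and highest value of 3187, 9821 and 29740 CPM in SAT, against 805, 1438 and 3008 CPM in VAT. With the group means removed, the log2 levels of this pair had a Pearson correlation of 0.954 over the 22 SAT libraries and 0.967 over the 24 VAT libraries. The points share their library and its depth, so this is a description of these libraries.

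A member with a high level in SAT and very little spread stood at the other end. Its values ran from 47.0 to 72.6 CPM in the 22 SAT libraries, with a median of 57.5, against 1.33 to 7.88 CPM in VAT, with a median of 4.98. The SD of its log2 level in SAT, 0.16, was the smallest among members, and the depots were 2.502 log2 units apart at their nearest libraries. Yet SAT late exercise replicates 4 and 6 had 12.1 and 17.0 CPM, under every other SAT library and over every VAT library.

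SAT late exercise replicates 4 and 6 are SAT samples that the rule did not use. They are set against the highest VAT library and the median of the other SAT libraries, which come from libraries the rule used. The comparison is therefore not independent of the choice. About equal numbers of members did and did not stay above VAT. In replicate 4, 46 members (49.5%) lay above the highest VAT library, and in replicate 6, 47 members (50.5%), where 37.8% and 46.6% of the 14693 genes tested did. Among the 494 genes that had a mean difference of at least 1 but overlapped, the shares were 49.4% and 51.8%. The members' shares were thus close to those of genes that failed the separation, and "always higher" describes the 22 SAT libraries rather than all 24.

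The members behaved in several ways in these samples, much alike in both libraries. In replicate 4, 11 members lay above every other SAT library, 21 inside the SAT range, 14 between the depots, 42 inside the VAT range and 5 below all VAT libraries. In replicate 6 the counts were 9, 22, 16, 42 and 4. Both libraries deviated from the SAT median in the same direction for 90 of 93 members. They lay together above all other SAT libraries for 9 members, together below all of them for 58, and together at or under the highest VAT library for 39. The counts in this paragraph are given without the share of all genes. They are not read as results about the members.

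Relative to the median of the 22 SAT libraries, the median member stood at -1.26 log2 units in replicate 4 and -1.15 in replicate 6. For the 494 overlapping genes these figures were -0.27 and -0.23. Members were chosen for high levels in each of those 22 libraries and the 494 genes were not, so the figures are not like for like. Members lower by at least 1 log2 unit numbered 57 in replicate 4 and 54 in replicate 6, while 10 and 9 members were higher by at least 1. Those counts, too, are given without the share of all genes. These libraries also stood apart in their correlation with all other SAT libraries, and the part of that in the members' values was not tested.

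**Figure D3:**
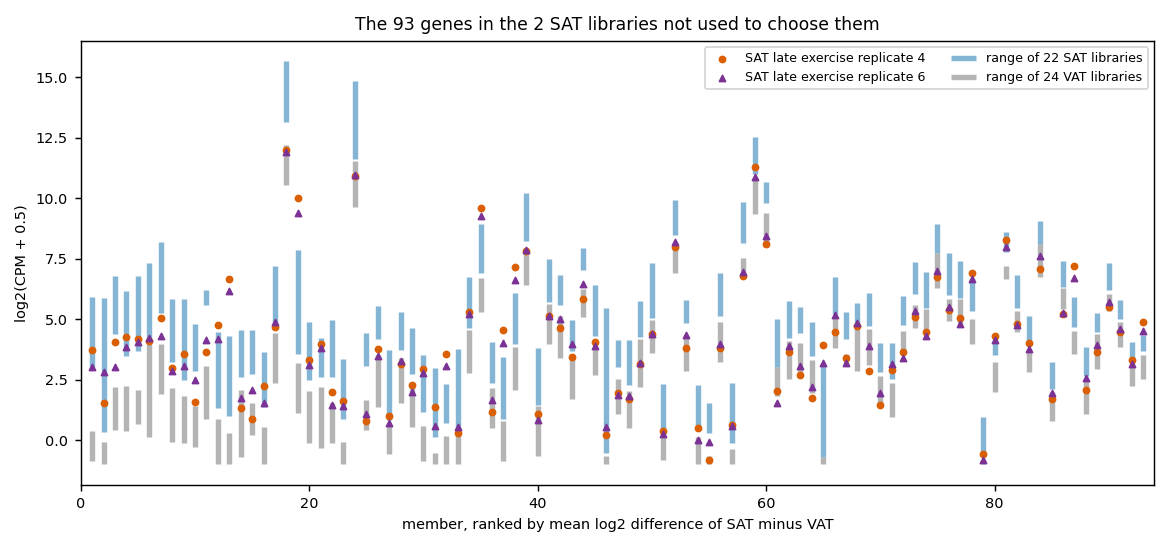
Log2 level of each member (horizontal axis, ranked by mean difference of SAT minus VAT) in SAT late exercise replicate 4 (orange circles) and replicate 6 (purple triangles). Blue bars span the 22 other SAT libraries and grey bars the 24 VAT libraries. Most symbols lie at or below the lower end of the blue bars, and 9 members have both symbols above them.

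The 9 raised members included the largest departures. A member at 1030 and 677 CPM in replicates 4 and 6 had a lowest, median and highest value of 11.3, 17.0 and 233 CPM in the other SAT libraries, and at most 8.70 CPM in VAT. Another stood at 101 and 70.7 CPM, against 1.52, 6.39 and 19.5 CPM in the other SAT libraries and at most 0.721 CPM in VAT. A further raised member had 14.9 and 8.74 CPM, where the other SAT libraries ranged from 0.118 to 8.40 CPM around a median of 0.672 CPM. Its highest VAT value was 0.117 CPM, so its depots were separated only within counting error.

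The remaining raised members ranged from 11.2 and 7.91 CPM to 780 and 615 CPM in replicates 4 and 6. They included a gene at 141 and 99.1 CPM, against a median of 29.5 and a highest value of 68.1 CPM in the other SAT libraries. They also included a gene at 146 and 103 CPM, against a median of 29.6 and a highest value of 60.2 CPM. For 4 of the 9, the highest of the other 22 SAT libraries was early control replicate 5.

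The size of the depot difference was then followed across the conditions. With replicates 4 and 6 of the late exercise group not used, the median member was 1.89 log2 units higher in SAT than in VAT in the late exercise groups, 1.86 in the late control groups, 1.76 in the early exercise groups and 1.79 in the early control groups. At least 1 log2 unit separated the depots for 89, 92, 89 and 89 members in that order of conditions. With all libraries the late exercise figures became 1.57 and 72 members. In the figures without replicates 4 and 6, every group difference is positive because the choice of members fixes its direction.

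Whether the depot difference itself depended on hour or exercise was tested as an interaction in 1 fit of all 48 libraries. The interaction for late minus early in exercised rats was not among those tested. The edgeR quasi-likelihood test called 0 of 93 members in each of 3 interactions, where 0% of the 14693 genes tested were called. Counts of members under an unadjusted p of 0.05 are given here and below without the share of all genes. They are not read as results about the members. For late minus early in sedentary rats, 1 member had an unadjusted p under 0.05, and the median member's depot difference was 0.15 log2 units larger late. For exercise minus control early, 2 members did, with a median of 0.09. DESeq2 and limma called 0 members in either. Without the 4 libraries that stood apart, edgeR called 0 members and 0% of all genes in both, 5 members had an unadjusted p under 0.05 for the hour with a median of 0.12, and 2 did for early exercise with a median of 0.08.

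For exercise minus control late, 12 members had an unadjusted p under 0.05 and the median interaction was -0.26. Over all genes tested the median was 0.02. The rule required high levels of every late control library in SAT but not of the SAT late exercise libraries that stood apart. The choice itself thus favours a negative interaction in this fit, and the members' median is not read as a result about them. For this interaction, DESeq2 called 1 member (1.08%, against 1.17% of all genes) and limma 0. Without the 4 libraries that stood apart, the median was 0.07 with 4 members under an unadjusted p of 0.05, and edgeR again called 0 members.

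Same-numbered SAT and VAT libraries of a group gave the difference for 22 pairs, with replicates 4 and 6 of the late exercise group not used. The median member was higher in SAT by 1.15 log2 units in the narrowest pair (early exercise replicate 3) and by 2.42 in the widest (late exercise replicate 5), and the median over the pairs was 1.90. In late exercise pairs 4 and 6 it was 0.56 each, with 19 and 26 members at or below 0. The number of members at least 1 log2 unit higher in SAT was 37 and 38 in these pairs, against 59 to 93 in the other 22. The rule used both libraries of those 22 pairs, so the choice fixes a positive difference of every member there. It did not use the SAT library of late exercise pairs 4 and 6, so the figures are not like for like.

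Comparing late with early exercise in SAT, edgeR's quasi-likelihood test at an adjusted p of 0.05 called 1 member higher and 14 lower of 93 tested. Over all genes tested, 9.83% were called higher and 7.51% lower. Members called lower made up 15.1%, above that background, and those called higher 1.08%, below it. The rule required high levels of every early exercise library in SAT but not of late exercise replicates 4 and 6. The choice itself thus favours lower values late in this fit, and the excess is not read as a result about the members. The median member had a log2 difference of -0.38, against 0.03 over all genes tested. In both directions together, DESeq2 called 23 members (24.7%, against 22.4% of all genes) and limma 1 (1.08%, against 9.32%). With edgeR, 5 members were called without late exercise replicate 6 (5.38%, against 10.4% of all genes) and 26 without late exercise replicate 5 (28%, against 22.2%).

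The call with the smallest p was of a member of low level. It had a lowest, median and highest value of 0.725, 1.01 and 1.52 CPM in the late exercise group, against 2.78, 4.97 and 13.3 CPM in the early exercise group. All 6 late libraries lay below all 6 early ones, and the log2 difference was -2.69 ± 0.387 (SE, edgeR adjusted p = 9.3e-05). A more abundant member had 25.2, 39.4 and 72.1 CPM in the late exercise group, against 60.6, 99.95 and 145 CPM in the early exercise group, and these groups overlapped. Its log2 difference was -1.11 ± 0.255 (edgeR adjusted p = 0.0058).

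The member called higher had 2.53, 14.1 and 101 CPM as the lowest, median and highest late exercise values, against 1.52, 3.50 and 13.0 CPM in the early exercise group. Its highest late value came from replicate 4, and its log2 difference was 2.48 ± 0.748 (edgeR adjusted p = 0.026).

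Of these 15 calls, 4 were made again without SAT late exercise replicates 4 and 6, when edgeR called 1 member higher and 4 lower. The backgrounds were then 6.03% higher and 6.13% lower, so the members' 4.30% called lower lay below the background, and the median member's difference was -0.11. The 2 members described as lower above were among the 4, with log2 differences of -2.48 (adjusted p = 0.00098) and -0.79 (adjusted p = 0.020). The member called higher in this fit was another gene, with a lowest, median and highest value of 7.60, 8.99 and 15.8 CPM in the 4 late exercise libraries kept, against 5.65, 7.48 and 9.01 CPM in the early exercise group. These groups overlapped, and the log2 difference was 0.55 ± 0.180 (SE, edgeR adjusted p = 0.047).

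In sedentary rats no SAT member passed the test for hour. The late minus early contrast had 0 members called of 93 by edgeR and 0 by DESeq2, while edgeR called 1.53% of all genes higher and 1.69% lower and DESeq2 called 5.37% in both directions together. Limma called 6 members (6.45%, against 19.8% of all genes), and 5 had an unadjusted edgeR p under 0.05. The median member's log2 difference was 0.12. Without replicates 4 and 6 of the late exercise group, which share the fit's spread, edgeR called 1 member higher and 0 lower against 4.43% and 4.13% of all genes. That member had a lowest, median and highest value of 19.9, 25.1 and 38.3 CPM in the late control group, against 0.767, 8.81 and 12.7 CPM in the early control group, with no overlap. Its log2 difference was 1.75 ± 0.524 (edgeR adjusted p = 0.041).

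Few SAT members were called for exercise. In the late rats, edgeR called 2 members higher and 5 lower in exercise than control, with 7.83% and 3.67% of all genes called higher and lower, and the median member's log2 difference was -0.47. The rule required high levels of every late control library but not of late exercise replicates 4 and 6, so the choice favours lower values with exercise here. The member with the smallest p had 2.48, 9.32 and 15.0 CPM as its lowest, median and highest values in the late exercise group, against 17.0, 22.5 and 27.7 CPM in the late control group. The groups did not overlap, and the log2 difference was -1.30 ± 0.328 (edgeR adjusted p = 0.023). Members called higher included the gene at 1030 and 677 CPM in replicates 4 and 6, whose log2 difference of 3.92 ± 1.10 (edgeR adjusted p = 0.031) had a median of 131 CPM in the late exercise group behind it, against 15.9 CPM in the late control group.

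Without replicates 4 and 6, none of these 7 calls was made, and without late exercise replicate 5 alone edgeR called 30 members (32.3%, against 21.2% of all genes). Without both replicates 4 and 6, edgeR called 0 members, against 1.44% and 0.696% of all genes, with 6 members under an unadjusted p of 0.05, and the median member's difference was -0.07. In the early rats, edgeR, DESeq2 and limma each called 0 members for exercise minus control in SAT, and edgeR called 0% of all genes. There, 3 members had an unadjusted p under 0.05 and the median member's difference was 0.11. Without replicates 4 and 6 of the late exercise group, edgeR again called 0 members and 0% of all genes, with 3 members under an unadjusted p of 0.05 and a median of 0.12.

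In VAT, where the members were at their lower level, 74 of the 93 passed edgeR's filter on low counts. The 19 not tested averaged at most 0.470 CPM in VAT. Among exercised rats, edgeR called 0 members higher and 10 lower late than early, with 10.3% and 10.8% of all genes called higher and lower. Members called lower made up 13.5% of those tested, near the background, and 0 called higher is below it. The median member's log2 difference was -0.19, against -0.01 over all genes tested.

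Most hour calls in exercised VAT were made again without the libraries that stood apart. Leaving out VAT early exercise replicate 3 and early control replicate 5, edgeR called 0 members higher and 11 lower among exercised rats, where 11% and 13.5% of all genes were called, and 9 of these calls were in both fits. Without late exercise replicate 3 or replicate 5 of VAT, edgeR called 6 members (8.11%) in either fit, against 18.1% and 17.1% of all genes in both directions together. The strongest was a member with a lowest, median and highest value of 4.68, 7.45 and 8.72 CPM in the late exercise group, against 11.4, 15.2 and 21.0 CPM in the early exercise group, with no overlap. Its log2 difference was -1.04 ± 0.162 (edgeR adjusted p = 6.6e-05). It is the abundant member that also fell late in exercised SAT.

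The widest fall among the VAT calls belonged to a member with 0.581, 1.37 and 4.01 CPM in the late exercise group, against 1.80, 5.21 and 15.1 CPM in the early exercise group. These groups overlapped, and the log2 difference was -1.62 ± 0.522 (edgeR adjusted p = 0.030). This gene had the largest spread of any member over VAT, an SD of 1.00 on the log2 scale.

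Among sedentary rats, edgeR called 2 VAT members higher and 3 lower late than early, with 5.39% and 5.96% of all genes called, so 2.70% and 4.05% of the members were called. Without the VAT libraries that stood apart it called 3 higher and 4 lower against 7.04% and 7.84%, and all 5 of the calls were made again. Without VAT early control replicate 3 it called 8 (10.8%, against 10.2% of all genes). A member that rose had 2.51, 3.11 and 4.65 CPM in the late control group, against 0.969, 1.91 and 2.52 CPM in the early control group. Its groups overlapped only at their edges, and its log2 difference was 0.85 ± 0.223 (edgeR adjusted p = 0.014).

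The other that rose had 6.71, 7.39 and 9.57 CPM in the late control group, against 3.39, 4.79 and 7.44 CPM in the early control group. These groups overlapped at their edges, and the log2 difference was 0.61 ± 0.182 (edgeR adjusted p = 0.032). A member that fell had 4.05, 5.08 and 10.7 CPM in the late control group, against 7.27, 10.3 and 13.1 CPM in the early control group. Its log2 difference was -0.81 ± 0.189 (edgeR adjusted p = 0.0057).

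Exercise itself gave 0 VAT calls among members by edgeR at either hour, and 0% of all genes were called. Late, 7 members had an unadjusted p under 0.05, DESeq2 called 0 and limma 1 (1.35%, against 1.44% of all genes). Early, 1 member had an unadjusted p under 0.05, and DESeq2 and limma called 0. Without the libraries that stood apart, edgeR again called 0 members and 0% of all genes, with 10 members under an unadjusted p of 0.05 late and 0 early.

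**Figure D4:**
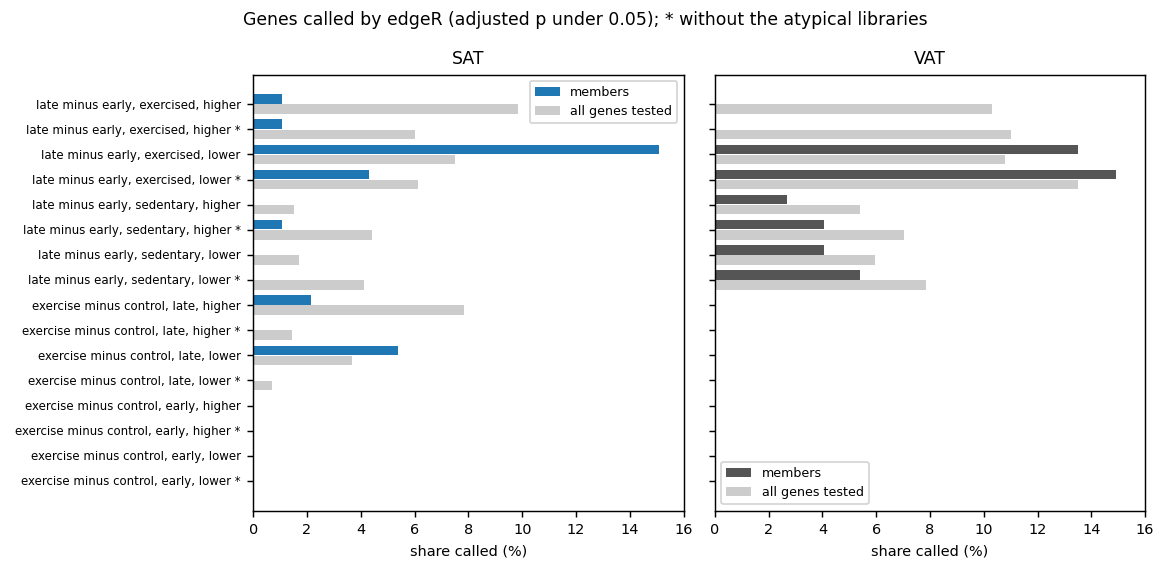
Share of members (coloured bars, SAT left and VAT right) and of all genes tested (light grey bars) called by edgeR at an adjusted p under 0.05, in percent, for each contrast and direction. Rows with an asterisk leave out the libraries that stood apart. The members' bar is above the background for lower late with exercise in SAT (15.1% against 7.51%) but not without those libraries (4.30% against 6.13%). The rule did not require high levels of SAT late exercise replicates 4 and 6, which are in the first of these fits.

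The calls of lower late overlapped in part between contrasts. Of the 10 VAT members lower late with exercise, 4 were also lower late with exercise in SAT, which is 40% of the VAT calls and 28.6% of the SAT calls. Over all genes called lower in these contrasts, 494 were shared, 33.1% of the VAT calls and 45.8% of the SAT calls. Some SAT calls were of members not tested in VAT, such as the call with the smallest p (mean of 0.283 CPM in VAT). These could not be shared, so the members' shares of the SAT calls, here and below, are not set against all genes on equal terms. In VAT, 3 members were lower late in both exercised and sedentary rats, and 2 members were lower in all 3 contrasts. Those counts are given without the share of all genes and are not read as results about the members. Without the libraries that stood apart, 1 member was lower late with exercise in both depots, 9.09% of the VAT calls and 25% of the SAT calls, against 26.7% and 56.1% over all genes. In all, 28 members (30.1%) were called in at least 1 contrast within a depot, against 38.6% of all genes tested in either depot. Without those libraries 20 members (21.5%) were, against 35.3% of all genes, and 15 were called in both fits. In the fit of all VAT libraries, 19 of the 93 members were not tested and could be called in SAT only.

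The 2 members lower late in all 3 contrasts were ENSRNOG00000010635 and ENSRNOG00000014149. In VAT of exercised rats, ENSRNOG00000010635 had a lowest, median and highest value of 107, 138 and 204 CPM late, against 193, 221 and 254 CPM early, and only the highest late library reached the early range. Its mean was 145 ± 36.6 CPM late and 224 ± 22.9 CPM early (SD, n = 6 each), a log2 difference of -0.57 ± 0.126 (edgeR adjusted p = 0.0022).

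In VAT of sedentary rats, ENSRNOG00000010635 had 124, 141 and 187 CPM late, against 220, 238 and 277 CPM early, with all 6 late libraries below all 6 early ones. The log2 difference was -0.68 ± 0.126 (edgeR adjusted p = 0.00071). Both VAT calls of this member held under all 19 alternatives run.

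In SAT of exercised rats it had 134, 304 and 390 CPM late, against 353, 442 and 537 CPM early, and the groups overlapped. The log2 difference was -0.63 ± 0.211 (edgeR adjusted p = 0.042), and the call was lost in 13 of 19 alternatives. Without late exercise replicates 4 and 6 the log2 difference was -0.30 (adjusted p = 0.12). In SAT of sedentary rats it had 327, 364 and 460 CPM late, against 364, 462 and 506 CPM early, with a log2 difference of -0.28 ± 0.210 (edgeR adjusted p = 0.58). This member was also among the 4 with the smallest distance between the depots, its lowest SAT library standing at 279 CPM and its highest VAT library at 277 CPM.

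ENSRNOG00000014149 had a lower level. In VAT of exercised rats it had a lowest, median and highest value of 4.09, 6.01 and 9.12 CPM late, against 8.81, 13.8 and 17.6 CPM early, and only the highest late library reached the early range. The mean was 6.37 ± 1.79 CPM late and 14.1 ± 3.27 CPM early (SD, n = 6 each), a log2 difference of -1.07 ± 0.204 (edgeR adjusted p = 0.00057).

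In VAT of sedentary rats ENSRNOG00000014149 had 4.36, 7.99 and 12.5 CPM late, against 9.50, 12.2 and 17.7 CPM early. Only the highest late library reached the early range, and the log2 difference was -0.72 ± 0.202 (edgeR adjusted p = 0.021). That call was lost in 3 of 19 alternatives. In SAT of exercised rats it had 8.34, 24.5 and 35.0 CPM late, against 34.4, 40.3 and 47.7 CPM early, with a log2 difference of -0.94 ± 0.293 (edgeR adjusted p = 0.031). Without late exercise replicates 4 and 6 this became -0.52 (adjusted p = 0.076), and the call was lost in 8 of 19 alternatives.

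In SAT of sedentary rats the log2 difference of ENSRNOG00000014149 was -0.47 ± 0.290 (edgeR adjusted p = 0.47). Late medians of both members were thus below early medians in both depots with and without exercise, and the test was passed in 3 of the 4 contrasts. Both were picked for being called lower late in the most contrasts, so that number follows from the choice. Exercise minus control was called for neither member in either depot or at either hour.

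**Figure D5:**
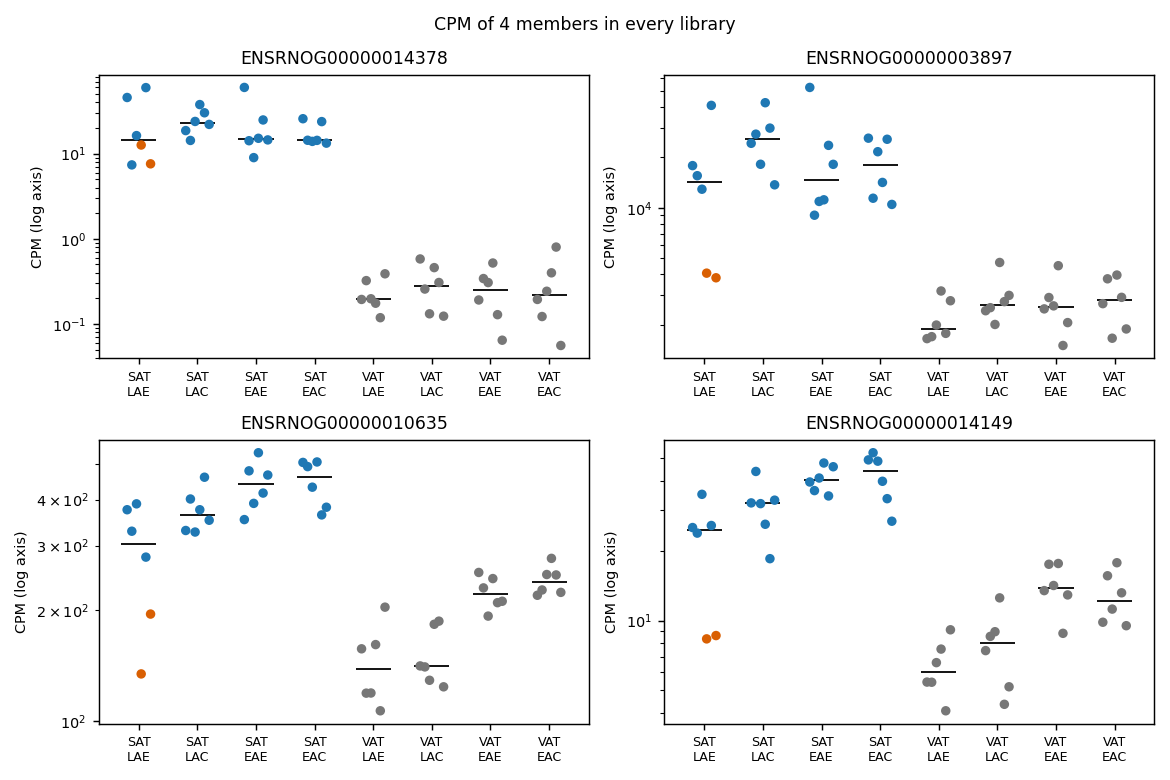
CPM of the 4 members given by ID in every library, by group, on log axes. Points are libraries (blue SAT, grey VAT, orange SAT late exercise replicates 4 and 6) and lines are medians of 6. For ENSRNOG00000010635 and ENSRNOG00000014149 the late groups lie below the early groups of the same depot, and the orange points fall in the VAT range.

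The median member varied more between libraries than the median gene tested. The SD of the log2 level over the 22 SAT libraries was 0.16 to 1.57 with a median of 0.45, against a median of 0.28 over all 14693 genes tested. Over the 24 VAT libraries it was 0.08 to 1.00 with a median of 0.36, against 0.25. The SD was larger in SAT than in VAT for 65 members (69.9%), where it was larger for 63.6% of all genes tested. Members were chosen on these same log2 levels, and genes of like depot difference were not set beside them. The SDs are therefore a description without a test. The most variable member in SAT was the gene at 1030 and 677 CPM in late exercise replicates 4 and 6, even with those libraries not used.

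Many members also moved together from library to library within a depot. With the group means removed, the median Pearson correlation over the 22 SAT libraries was 0.240 among the 4278 pairs of members, against 0.043 among all genes. It was over 0.8 for 383 pairs of members, which is 8.95% against 0.408%. Over the 24 VAT libraries the median was 0.420 against 0.183, and 179 pairs (4.18% against 1.86%) were over 0.8. Pairs share their libraries and depth, and the members share a floor on the SAT level, so these values describe the libraries without a test.

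The shared variation in SAT was uneven among members. The most abundant member, ENSRNOG00000003897, correlated over 0.8 with 27 other members, while 30 members had no partner over 0.8. The largest number of partners of any member was 29. These counts are given without the share of all genes. ENSRNOG00000003897 and its partners, 28 genes chosen after their values were seen, had a median of 71.8 CPM in SAT, against 19.2 CPM for the other 65. Their mean deviation from their own average over the 22 SAT libraries ran from -0.71 in early exercise replicate 2 to 1.01 in early exercise replicate 1, so libraries at both ends came from the same group.

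In SAT late exercise replicates 4 and 6 the 28 genes had medians of -1.39 and -1.496 log2 units relative to the median of the 22 SAT libraries, with 9 and 8 of them above the highest VAT library and 0 above all SAT libraries. The other 65 members had medians of -1.06 and -1.01, with 37 and 39 above the highest VAT library. All the raised members belonged to these 65.

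The members' levels in the depots were largely unrelated between same-numbered libraries. With group means removed, the Pearson correlation of a member's SAT and VAT log2 levels over the 22 same-numbered pairs had a median of 0.042 and ran from -0.394 to 0.626. The median over all genes tested was 0.142. It was over 0.5 for 6 members (6.45%), against 8.51% of all genes. The labels do not state that a number marks a rat across the depots.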

How the data were processed

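PolyA RNA of 24 male rats from both depots was sequenced, per the labels' protocols, in single-end reads of 50 nt. The authors' deposited table holds estimated counts per gene for 23481 Ensembl IDs, already whole numbers. The submitters' processing notes name Salmon 1.4.0 and build rn6, and the annotation release is not given in the sources used here. Columns were matched to samples by the library names in the labels, and groups follow the labels, 6 libraries each. CPM, the counts scaled to a common library total, were computed here from column totals. Contrasts were fitted with edgeR 4.0.16 in R 4.3.3 (TMM, filterByExpr, quasi-likelihood, Benjamini-Hochberg over all genes tested, threshold 0.05) on the 24 libraries of a depot or all 48. Alternatives were DESeq2 1.42.0, limma 3.58.1 with quality weights, DESeq2 size factors, no filter, a fit of the compared groups alone, a replicate block, and left-out libraries. The fitting code was tested on simulated data.

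The members and lists were chosen with earlier results of these data known. Of the gene name table at hand, 0 rows carried an Ensembl ID, so the gene lists, cell type markers, sequences and most of the planned named genes (list members, the largest differences and levels, the smallest p per contrast) were not used here. The rule was reduced, after the table was seen, to 4 IDs: the largest difference, the highest level and the members called lower late in the most contrasts. Whether libraries of a group came from separate rats follows from the labels' 6 rats a group. All 120 within-group pairs differed by more than sampling noise (chi-square per degree of freedom of at least 8.15), so none was counted as a copy.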

Additional observations from a re-analysis of the deposited data

Results flagged for a closer look

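Each group of 6 libraries was searched for a library whose gap to its nearest neighbour took an unusual part of the group's range (Dixon's 95% critical value), for 6 measures in 8 groups. Of these 48 searches, 7 found such a library. The nominal rate is about 1 in 20, but the measures share members and libraries and most are CPM without a log. The 7 are therefore not compared with that rate. All 7 concern the highest library of its group, and 3 libraries account for them.

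SAT early exercise replicate 1 had a summed level of the 93 members of 97150 CPM, with the next library of its group at 48510 CPM. The same library was highest for ENSRNOG00000014378, at 59.93 CPM with the next at 24.87 CPM, and for ENSRNOG00000003897, at 52390 CPM with the next at 23620 CPM. SAT late exercise replicate 5 had a summed level of 72340 CPM, with the next at 33820 CPM.

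VAT late control replicate 4 had a summed level of 12570 CPM, with the next at 7485 CPM. Its mean log2 level over the members was 3.25, with the next at 2.79, and its ENSRNOG00000003897 level was 4715 CPM, with the next at 2998 CPM. It is also the VAT library that was highest for 34 of the 93 members.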

How the results depend on the processing

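The number of members was 89 with a pseudocount of 1, 88 with TMM library sizes (78 of them shared), 125 with the VAT libraries that stood apart left out as well, and 119 with no fold minimum. It was 40 with the left-out SAT libraries included (39 shared), 38 with a mean difference of at least 2, and 92 to 121 with any 1 library left out. The members above VAT in SAT late exercise replicates 4 and 6 numbered 42 and 39 with TMM sizes, and 46 and 47 without the VAT libraries that stood apart, both alternatives chosen after seeing the data.

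Counts of members called depended on the setting, and where they did the cause was not tested. DESeq2 called 23 for late minus early in exercised SAT (edgeR 15), 24.7% against 22.4% of all genes. For exercise minus control late in SAT it called 15 (edgeR 7), 16.1% against 18.9%. For the late exercise interaction of the depots it called 1 (edgeR 0), with the share of all genes given above. Limma called 1 and 1 in those SAT contrasts (1.08% each, against 9.32% and 2.07% of all genes). For late minus early it called 6 in sedentary SAT (edgeR 0), 6.45% against 19.8%, and 12 in sedentary VAT (edgeR 5), 16.2% against 17.3%. For exercise minus control late in VAT it called 1 (edgeR 0), 1.35% against 1.44%. With only the groups compared in the fit, the calls were 2, 0 and 3 for the SAT contrasts of exercised rats by hour, late rats by exercise and sedentary rats by hour. These were 2.15%, 0% and 3.26% of the members tested, against 2.77%, 0% and 12.1% of all genes. Without the libraries that stood apart the calls were 5, 0 and 1, with the shares of all genes given above.

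Leaving out 1 library gave 5 to 26 calls for exercised SAT by hour, 0 to 30 for late SAT by exercise, 6 to 14 for exercised VAT by hour, 4 to 8 for sedentary VAT by hour, and 0 to 0 for the other 4 contrasts within a depot. For exercised SAT by hour, the count moved over 1.5 times without early exercise replicate 3 (6) or 6 (9), or late exercise replicate 4 (7), 5 (26) or 6 (5). In that order these were 6.45%, 9.68%, 7.53%, 28% and 5.38% of the members. Of all genes, 11.9%, 13.6%, 12.1%, 22.2% and 10.4% were called in the same fits. For late SAT by exercise it did so without late exercise replicate 2 (12), 4 (1), 5 (30) or 6 (0), or late control replicate 1 (0), 2 (1), 3 (0), 4 (2) or 6 (2). For those late exercise replicates, 12.9%, 1.08%, 32.3% and 0% of the members were called, against 20%, 1.78%, 21.2% and 2.63% of all genes. For those late control replicates, it was 0%, 1.08%, 0%, 2.15% and 2.15%, against 2.44%, 2.43%, 2.27%, 7.8% and 7.43%. For VAT it did so without late exercise replicate 3 (6) or 5 (6) in exercised rats and early control replicate 3 (8) in sedentary rats, with the shares of all genes given above.

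Groups of rats share replicate numbers only as names: same-numbered libraries of a depot had correlations of deviations of -0.38 to 0.55, over 0.1 in 22 of 48 pairs. With the replicate block the calls were 0 for late SAT by exercise (0%, against 2.68% of all genes) and 8 for sedentary VAT by hour (10.8%, against 10.9%). Across depots, same-numbered libraries had correlations of -0.10 to 0.23, over 0.1 in 16 of 24 pairs. With that block the interactions still gave 0 calls.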
